A study of Mus musculus with 17 samples.

Results

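The 10 genes described here encode the C-type natriuretic peptide (CNP) route to cGMP and the gap junctions that carry it through the ovarian follicle: Nppc, Npr2, Npr3, Pde5a, Prkg1, Gja1, Gja4, Gjc1, Impdh1 and Impdh2. They were chosen by name for their known roles, with earlier results of these data known, among 25198 gene symbols in the deposited count table. All 10 were present in it. A total of 9 of the 10 passed the filter on low counts, as did 9603 of the 25198 symbols. The member below the filter was Prkg1.

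CNP is made by the granulosa cells of the follicle wall and binds NPR2, a guanylyl cyclase receptor that is abundant on the cumulus cells around the oocyte. The cGMP formed there passes from cell to cell through connexin channels into the oocyte, where it inhibits the phosphodiesterase PDE3A, so that cAMP stays high and meiosis stays arrested. After the ovulatory surge of luteinizing hormone, receptor activity and CNP fall, the channels between somatic cells close, and part of this sequence runs through EGF-like ligands and the EGF receptor.

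The libraries came from antral follicles of CD1 mice, isolated at 16 days of age and grown for 8 days in eIVFG (encapsulated in vitro follicle growth). Tyrphostin AG1478 is an inhibitor of the EGF receptor kinase, and the labels give 10 µM of it with a 4 h exposure to hCG (human chorionic gonadotropin, used to start ovulation). There were 11 Control libraries (6 from batch 1 and 5 from batch 2) and 6 Tyrphostin libraries (3 from each batch). All groups share the strain, age and culture, and every sample carries the same treatment text, so whether Control follicles received hCG or a vehicle is not given there. The names of the count columns place the Control libraries in numbered sets. Control 1 to 3 are set 1, Control 4 to 6 set 2, Control 7 and 8 set 4, Control 9 set 5, and Control 10 and 11 set 6. What the libraries of a set share is not stated. Per the labels follicles were pooled in each library, and nothing states whether libraries or sets came from separate animals or cultures. The p-values therefore measure the spread between these libraries, which may be technical in part.

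Total counts ran from 1820545 to 8291024 in Control and from 3077632 to 7451417 in Tyrphostin libraries. As a check of the labels, Dusp6, a feedback phosphatase of the ERK pathway, was at 380 to 811 CPM (reads of a gene relative to the scaled library total) in Control and at 72.4 to 190 CPM in Tyrphostin libraries, with no overlap. Egr1, an immediate early gene, was at 599 to 2465 CPM in Control and 117 to 537 CPM in Tyrphostin libraries, also with no overlap, whereas Areg, an EGF-like ligand, overlapped at 69.6 to 1419 CPM against 20.3 to 472 CPM. Granulosa markers were abundant as a sum, at 72088 to 91415 CPM in Control and 65462 to 87785 CPM in Tyrphostin libraries. Inha (44385 CPM), Inhba (24228 CPM) and Cyp11a1 (8410 CPM) had the highest Control means among them. Amh, which marks granulosa cells of earlier follicles, had 10 reads over all libraries, and Foxl2, another granulosa marker, had 77. Neither passed the filter. Markers of 4 other cell types overlapped between the groups. Their summed levels were 30.4 to 206 CPM in Control and 33.6 to 384 CPM in Tyrphostin libraries for 12 oocyte genes, and 273 to 2160 CPM and 278 to 3078 CPM for 10 theca and stroma genes. They were 8.51 to 91.4 CPM and 8.73 to 34.4 CPM for 6 endothelial genes, and 17.3 to 460 CPM and 18.3 to 850 CPM for 6 immune genes. No marker of these lists was at 0 in every library. Of those that passed the filter, edgeR called 0 of 10 oocyte and 0 of 9 theca and stroma markers between the groups. It also called 0 of 2 endothelial and 0 of 2 immune markers. At an unadjusted p under 0.05 there were 1 oocyte and 1 endothelial marker, beside 2279 of all 9603 genes. DESeq2 called 1 oocyte marker, Zp2, and limma-voom none of the 4 lists. The summed level of 5 cumulus markers was 3568 to 13205 CPM in Control and 472 to 2708 CPM in Tyrphostin libraries. Most of this sum was Tnfaip6, at a Control mean of 6394 CPM, against 165 CPM for Has2 and 50.7 CPM for Ptx3. These 3 genes, all induced during cumulus expansion, passed the filter and were called lower in Tyrphostin libraries. The others of the list, Amh and Slc38a3 (43 reads over all libraries), did not pass the filter. Of 8 granulosa markers that passed it, 5 were called higher (Hsd17b1, Lhcgr, Nr5a2, Cyp19a1 and Fshr). The part of these shifts in the members' values below was not tested. Control 7 and Tyrphostin 6 held the highest oocyte sums of their groups, and Control 8 and Tyrphostin 5 the highest immune sums.

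In Tyrphostin libraries, Nppc and Impdh1 were higher than in Control libraries, and no member was called lower. Nppc differed by 0.96 ± 0.24 on the log2 scale (SE) and Impdh1, an isoform of the enzyme that commits purine precursors to guanine nucleotides, by 0.61 ± 0.18. The 2 members called, of 9 tested, stand beside 10.6% of all genes tested that were called (1018 of 9603) with 4.35% called higher and 6.25% called lower. Both calls rest on the fit across all genes with batch as a term (edgeR's quasi-likelihood test, Benjamini-Hochberg adjusted p under 0.05). The median log2 difference over the 9 members was 0.36, beside 5.42e-05 over all genes tested, and 7 of the 9 had a positive difference, beside 4803 of all 9603 genes. In whole follicles, fewer cells of a type and less RNA per cell cannot be told apart.

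**Figure D1:**
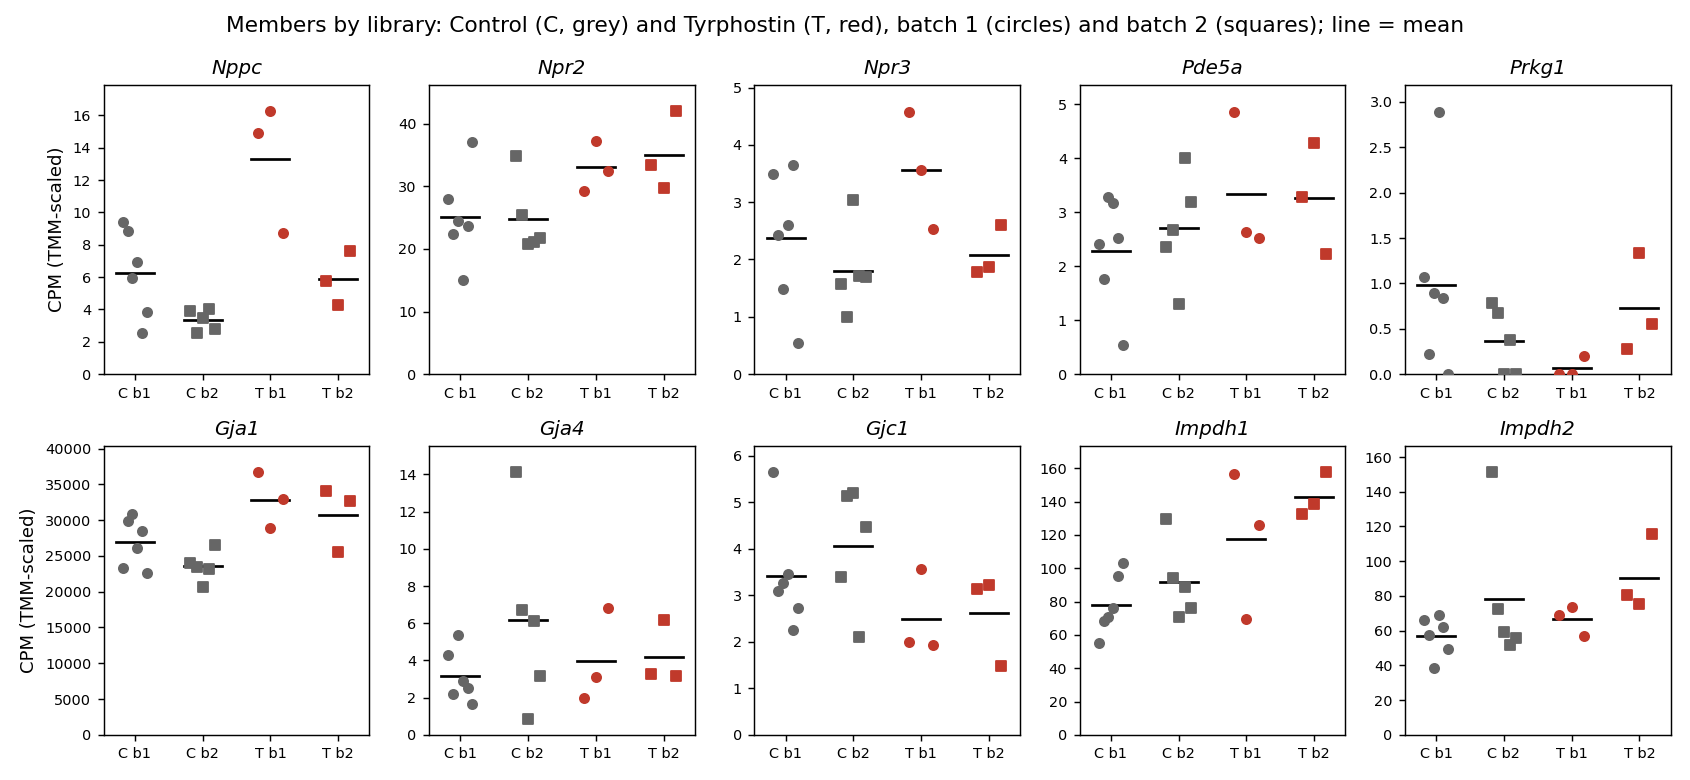
CPM (linear axes from 0) of each of the 10 genes in every library, with Control in grey, Tyrphostin in red, batch 1 as circles, batch 2 as squares and the mean of each group and batch as a line. Nppc reaches 16.2 CPM in Tyrphostin 2 and at most 9.41 CPM in Control, and in every gene libraries of the 2 groups overlap.

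Nppc encodes the CNP precursor, the ligand of the route (chromosome 1, 86666291 to 86670571, minus strand of GRCm38, GENCODE M21 annotation). The 250 bases before its RefSeq start (chr1:86670574-86670823, minus strand, GRCm38.p6) are shown because Nppc was the member with the largest called difference, and no annotated exon lies in them. Capitals mark the matches to 2 of the 6 motifs searched on both strands, an Sp1 box (GGGCGG) that begins 62 bases before the start and a TATA box (TATAAA) that begins 29 bases before it.
Nppc: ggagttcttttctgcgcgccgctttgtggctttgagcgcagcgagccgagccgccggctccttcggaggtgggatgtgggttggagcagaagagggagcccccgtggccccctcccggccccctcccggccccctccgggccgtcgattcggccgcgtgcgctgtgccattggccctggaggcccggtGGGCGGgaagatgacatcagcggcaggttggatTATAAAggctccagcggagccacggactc

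The Sp1 box was found in 32.7% and the TATA box in 12.4% of all 32851 promoter windows of this length. A match is a match of letters and was not tied to binding by any measurement here.

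Nppc levels ran from 2.53 CPM (Control 5) over a median of 3.92 to 9.41 CPM (Control 1) in Control libraries, and from 4.29 (Tyrphostin 5) over 8.18 to 16.2 CPM (Tyrphostin 2) in Tyrphostin libraries. The groups overlapped: 2 of the 6 Tyrphostin libraries, both of batch 1, lay above all Control libraries. Control libraries averaged 4.93 ± 2.49 CPM (SD, n = 11), and Tyrphostin libraries averaged 9.58 ± 4.90 CPM (SD, n = 6). The difference of 0.96 (95% interval 0.46 to 1.47) had an adjusted p of 0.0119 in edgeR's quasi-likelihood test. These levels rest on 7 to 105 reads per library. Nppc was called whichever of the 17 libraries was left out. It was not called without the batch term (0.97, edgeR adjusted p = 0.0791).

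The batches stood at different Nppc levels in both groups. Mean levels were 6.25 CPM in Control and 13.3 CPM in Tyrphostin libraries of batch 1, and 3.34 and 5.88 CPM in those of batch 2. Within batch 1 the log2 difference was 1.06 (edgeR adjusted p = 0.0781) and within batch 2 it was 0.84 (edgeR adjusted p = 0.369), so the direction was shared and neither value passed the threshold. Between the Control libraries of batch 2 and batch 1, Nppc differed by -0.92 ± 0.35 on the log2 scale, which did not pass it either (edgeR adjusted p = 0.103).

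Npr2 encodes the guanylyl cyclase receptor of CNP (chromosome 4, 43631935 to 43651244, plus strand). Its level was 15.02 CPM at the lowest (Control 4), 23.6 at the median and 37.0 CPM at the highest (Control 6) in Control libraries. In Tyrphostin libraries it was 29.3 (Tyrphostin 1), 32.9 and 42.0 CPM (Tyrphostin 6). All Tyrphostin libraries lay above the Control median, and 2 of them lay above every Control library. The log2 difference of 0.45 ± 0.17 (95% interval 0.10 to 0.80) missed the threshold, with an adjusted p of 0.0915 in edgeR's quasi-likelihood test. It was 0.42 within batch 1 and 0.51 within batch 2. Without Control 6 it was 0.53 (edgeR adjusted p = 0.0299) and without Control 7 it was 0.52 (edgeR adjusted p = 0.0317), so leaving out either of these libraries moved it across the threshold. Exons of Npr2 overlap those of Gm12473 on the other strand, and since the strand setting of the counting is not given, reads of the 2 cannot be told apart.

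Npr3 encodes the receptor that takes natriuretic peptides up for breakdown and has no cyclase domain (chromosome 15, 11839896 to 11907287, minus strand). It was scarce: 0.545 (Control 6), 1.72 and 3.65 CPM (Control 5) were the lowest, median and highest Control levels, and 1.78 (Tyrphostin 4), 2.56 and 4.58 CPM (Tyrphostin 1) those in Tyrphostin libraries. The groups overlapped in all but 1 Tyrphostin library. On 1 to 32 reads per library, the log2 difference was 0.43 ± 0.32 with a 95% interval of -0.23 to 1.08, so a difference of 1 log2 unit in the positive direction lies inside the interval. Exons of Npr3 overlap those of Gm5144 on the other strand.

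Within a library, the ratio of Nppc to Npr2 reads set ligand beside receptor. It ran from 0.101 over 0.167 to 0.462 in Control and from 0.144 over 0.225 to 0.507 in Tyrphostin libraries. By batch, it was 0.103 to 0.462 (batch 1) and 0.101 to 0.189 (batch 2) in Control. In Tyrphostin libraries it was 0.269 to 0.507 (batch 1) and 0.144 to 0.181 (batch 2). The ratio of Npr3 to Npr2 reads ran from 0.0147 over 0.0811 to 0.173 in Control and from 0.0531 over 0.0705 to 0.156 in Tyrphostin libraries. With the batches pooled, both ratios overlapped between the groups over most of their range. They are not corrected for gene length.

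**Figure D2:**
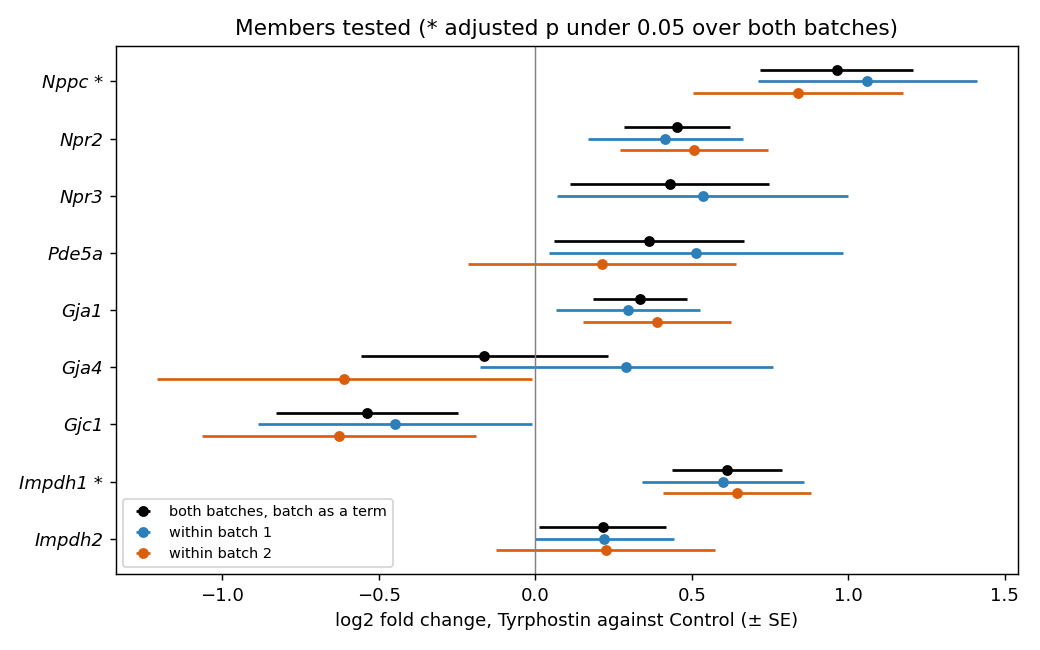
Log2 difference of Tyrphostin from Control (horizontal axis, bars ± SE) for the 9 members that passed the filter, from the fit of all libraries and from each batch alone. Nppc (0.96) and Impdh1 (0.61), marked with a star, lie to the right of 0 in both batches, and Gja4 has a positive value in batch 1 and a negative one in batch 2.

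Downstream of the receptor, Pde5a encodes a phosphodiesterase that breaks down cGMP (chromosome 3, 122728947 to 122859374, plus strand). Its levels were 0.545 (Control 6), 2.53 and 4.00 CPM (Control 10) in Control and 2.23 (Tyrphostin 6), 2.95 and 4.86 CPM (Tyrphostin 1) in Tyrphostin libraries. The 2 groups overlapped, with 2 Tyrphostin libraries above all Control libraries. The log2 difference of 0.36 ± 0.30 had a 95% interval of -0.26 to 0.99 and did not pass the test (edgeR adjusted p = 0.517). Without Tyrphostin 1 it was 0.18. Exons of Pde5a overlap those of 4930447N08Rik on the other strand.

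Prkg1, the type I cGMP-dependent protein kinase (chromosome 19, 30564489 to 31765033, minus strand), had 43 reads in all 17 libraries and 10 reads at most in one. It was read at 0, 0.669 and 2.89 CPM (Control 4) in Control and at 0, 0.234 and 1.34 CPM (Tyrphostin 5) in Tyrphostin libraries. A floor of 3 reads is worth 0.334 to 1.63 CPM in these libraries, and the median library held 3 reads of Prkg1 in Control and 1.5 in Tyrphostin. In batch 1 Prkg1 had 0 to 10 reads per library in Control and 0 to 1 in Tyrphostin, and in batch 2 it had 0 to 6 and 2 to 5. Without the filter the fitted log2 difference was -0.91 (edgeR adjusted p = 0.614), with values of opposite sign in batch 1 (-3.55, edgeR adjusted p = 0.144) and batch 2 (0.73, edgeR adjusted p = 0.860). The interaction without the filter had an unadjusted p of 0.011 (edgeR adjusted p = 0.538). None of these passed the threshold at this depth, and fitted values on so few reads depend on the prior count.

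Of the connexins, Gja1 (Cx43, which joins granulosa and cumulus cells to each other) was by far the most abundant (chromosome 10, 56377330 to 56402513, plus strand). By mean share of reads, which is not corrected for gene length, it had rank 2 among all genes. The 250 bases before its RefSeq start (chr10:56377050-56377299, plus strand, GRCm38.p6) are shown for this rank. Capitals mark an AP-1 element (TGANTCA) that begins 19 bases before the start and 2 CRE half-sites (TGACG, at 201 bases and, read on the other strand, at 159 bases).
Gja1: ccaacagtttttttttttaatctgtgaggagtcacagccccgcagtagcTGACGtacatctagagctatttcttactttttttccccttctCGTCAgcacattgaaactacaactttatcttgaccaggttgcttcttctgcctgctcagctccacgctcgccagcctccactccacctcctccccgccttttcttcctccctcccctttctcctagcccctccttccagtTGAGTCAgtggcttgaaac

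AP-1 elements were found in 6.75% and CRE half-sites in 17.8% of all promoter windows of this length.

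Gja1 stood at 20592 (Control 9), 23986 and 30908 CPM (Control 3) in Control libraries and at 25615 (Tyrphostin 5), 32781 and 36728 CPM (Tyrphostin 1) in Tyrphostin libraries. A total of 4 of the 6 Tyrphostin libraries lay above every Control library. The log2 difference was 0.34 ± 0.15 (95% interval 0.03 to 0.64), with an adjusted p of 0.170 in edgeR's quasi-likelihood test, and DESeq2 called it at 0.33 (adjusted p = 0.0229). It was 0.30 within batch 1 and 0.39 within batch 2, neither past the threshold.

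How the libraries were scaled moved Gja1 and Npr2 across the threshold. As a share of all reads in a library, Gja1 took 1.92 to 2.89% in Control (2.45 ± 0.338%, SD, n = 11) and 2.95 to 3.78% in Tyrphostin libraries (3.40 ± 0.313%, SD, n = 6), so that no Tyrphostin library overlapped with Control. Of all genes tested, 0.833% lay in this way above every Control library on shares, and 0.51% on scaled CPM. With total-count scaling Gja1 differed by 0.47 (edgeR adjusted p = 0.0288) and Npr2 by 0.59 (edgeR adjusted p = 0.0309), and 4 members were called, Nppc and Impdh1 included. That scaling raised the median difference of all genes to 0.15 and the share of calls that were higher from 41.1% to 64.4%. Relative to that median the differences were 0.33 for Gja1, 0.45 for Npr2, 0.95 for Nppc and 0.61 for Impdh1.

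Gja4 (Cx37, the connexin of the channels between oocyte and cumulus cells; chromosome 4, 127311421 to 127314039, minus strand) was low and spread widely. Its levels were 0.866 (Control 9), 3.19 and 14.1 CPM (Control 7) in Control and 2.00 (Tyrphostin 1), 3.22 and 6.80 CPM (Tyrphostin 3) in Tyrphostin libraries, with every Tyrphostin library inside the Control range. The log2 difference was -0.16 ± 0.39 with a 95% interval of -0.98 to 0.65 (edgeR adjusted p = 0.858), from 0.29 in batch 1 to -0.61 in batch 2. Without Control 7 it was 0.08. Control 7 also held the highest oocyte marker sum of the Control group, 206 CPM, whereas Tyrphostin 6, at 384 CPM of oocyte markers, had 3.16 CPM of Gja4. The part of oocyte content in these levels was not tested.

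Gjc1 (Cx45; chromosome 11, 102799579 to 102819700, minus strand) was the other member with a negative difference. It ran from 2.10 (Control 10) over 3.40 to 5.64 CPM (Control 1) in Control and from 1.49 (Tyrphostin 6) over 2.57 to 3.56 CPM (Tyrphostin 2) in Tyrphostin libraries, 3 of which lay below all Control libraries. The log2 difference of -0.54 ± 0.29 (95% interval -1.14 to 0.06) did not pass the test (edgeR adjusted p = 0.276). Both batches gave negative values, -0.45 and -0.63. Within a library, Gja1 had 1699 to 23779 times as many reads as Gja4 in Control (median 8301) and 4156 to 18337 times as many in Tyrphostin libraries (median 9841).

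**Figure D3:**
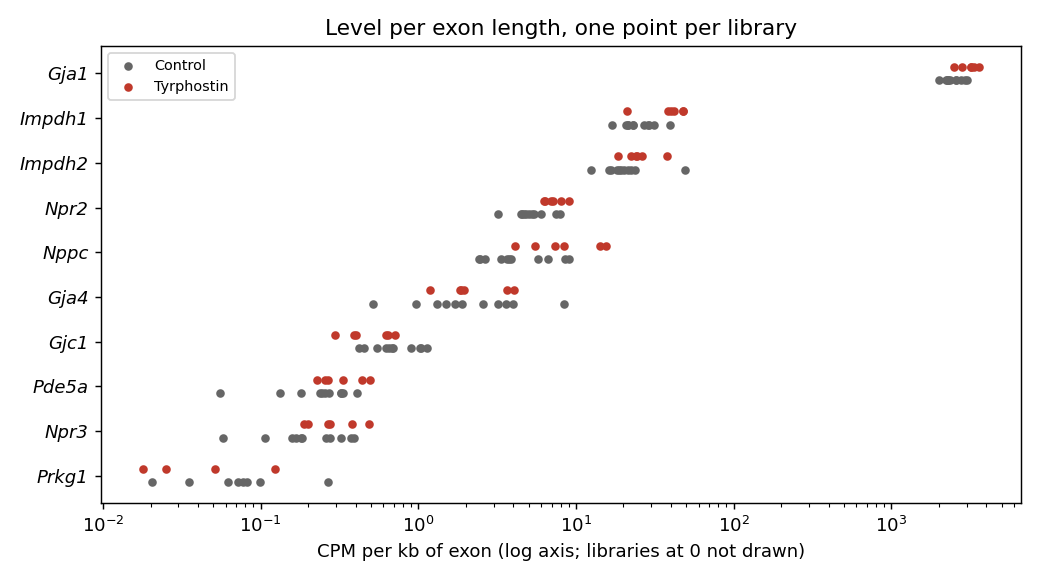
Level of the 10 members per kilobase of annotated exon in every library (CPM per kb, log axis), with Control in grey and Tyrphostin in red; libraries at 0 are not drawn. Gja1, at means of 2475 CPM per kb in Control and 3102 in Tyrphostin libraries, stands far above the other members, and Prkg1 is lowest at means of 0.0649 and 0.0363.

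Impdh1 (chromosome 6, 29200434 to 29216364, minus strand) encodes one of the 2 IMP dehydrogenases, which supply the guanine nucleotides that guanylyl cyclases use. The 250 bases before the first of its 2 RefSeq starts (chr6:29216365-29216614, minus strand, GRCm38.p6) are shown as the other called member. Capitals mark 3 Sp1 boxes, which begin 104 and 80 bases before the start and, on the other strand, 11 bases before it.
Impdh1: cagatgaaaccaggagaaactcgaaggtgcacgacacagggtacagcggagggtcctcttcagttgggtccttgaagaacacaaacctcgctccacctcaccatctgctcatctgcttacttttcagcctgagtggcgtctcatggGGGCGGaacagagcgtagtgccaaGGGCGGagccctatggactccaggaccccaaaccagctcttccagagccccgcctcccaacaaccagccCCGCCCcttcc

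Impdh1 levels were 55.4 (Control 1), 76.1 and 129 CPM (Control 7) in Control libraries and 69.6 (Tyrphostin 2), 136 and 158 CPM (Tyrphostin 6) in Tyrphostin libraries. Tyrphostin 2 lay below the Control median, and 4 of the 6 Tyrphostin libraries lay above every Control library. The means were 84.3 ± 20.5 CPM (SD, n = 11) and 130 ± 32.3 CPM (SD, n = 6). The log2 difference of 0.61 (95% interval 0.25 to 0.98) had an adjusted p of 0.0261 in edgeR's quasi-likelihood test. It was 0.60 within batch 1 (edgeR adjusted p = 0.184) and 0.65 within batch 2 (edgeR adjusted p = 0.315). The call was lost without Tyrphostin 1 (0.50, edgeR adjusted p = 0.107) and without Tyrphostin 6 (0.58, edgeR adjusted p = 0.0595). It was also lost with Control libraries summed by set (0.69, edgeR adjusted p = 0.0553) and without the 2 libraries of highest immune markers (0.64, edgeR adjusted p = 0.0518), an omission chosen after seeing the data.

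Impdh2, the other isoform (chromosome 9, 108560286 to 108565584, plus strand), ran from 38.4 (Control 3) over 59.3 to 151 CPM (Control 7) in Control and from 56.9 (Tyrphostin 3) over 74.5 to 116 CPM (Tyrphostin 6) in Tyrphostin libraries. All Tyrphostin libraries lay within the Control range. Its log2 difference was 0.22 ± 0.20 (95% interval -0.20 to 0.63; edgeR adjusted p = 0.575). The highest level of each group came from the library with the highest oocyte marker sum in CPM of that group, and the part of oocyte content was not tested. Without Control 7 the difference was 0.40 (edgeR adjusted p = 0.090), and without Tyrphostin 6 it was 0.13 (edgeR adjusted p = 0.791). Exons of Impdh2 overlap those of Ndufaf3 on the other strand. The ratio of Impdh1 to Impdh2 reads ran from 0.837 over 1.29 to 2.08 in Control and from 0.945 over 1.74 to 2.27 in Tyrphostin libraries, so it overlapped too.

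Per kilobase of exon the order of the mean Control levels was Gja1, Impdh1 (25.6 ± 6.23 CPM per kb, SD, n = 11), Impdh2 (21.7 ± 9.65), Npr2 (5.34 ± 1.36), Nppc (4.73 ± 2.39), Gja4 (2.69 ± 2.18), Gjc1 (0.740 ± 0.245), Pde5a (0.252 ± 0.0999), Npr3 (0.225 ± 0.107) and Prkg1. Ranges of mean ± SD overlapped for the neighbours Impdh1 and Impdh2, Npr2 and Nppc, and Nppc and Gja4. They also overlapped for Gja4 and Gjc1, Pde5a and Npr3, and Npr3 and Prkg1 (0.0649 ± 0.0759). Such overlap ignores that both genes of a pair were read in the same libraries, and no difference within libraries was tested. In Tyrphostin libraries Nppc, at 9.20 ± 4.70 CPM per kb (SD, n = 6), came before Npr2, at 7.29 ± 1.04, again with overlap. The other members kept their order. These orders of Nppc and Npr2 pool the batches. By mean level over exon lengths of 1042 and 4667 bases, Nppc came before Npr2 in both groups of batch 1. In batch 2 Nppc came after Npr2 in both groups, so the order did not change with treatment within either batch. Mean levels of Nppc in batch 1 and batch 2 were 6.25 and 3.34 CPM in Control and 13.3 and 5.88 CPM in Tyrphostin libraries. Those of Npr2 were 25.1 and 24.8 CPM, and 33.0 and 35.1 CPM, in the same order. None of these orders was tested.

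Within batches, 0 of 9 members tested in batch 1 and 0 of 8 tested in batch 2 were called by edgeR, beside 6.73% and 0.621% of all genes. At an unadjusted p under 0.05 there were 2 members in each batch, Nppc and Impdh1, beside 2001 of 9423 genes in batch 1 and 1047 of 9830 in batch 2, and DESeq2 and limma-voom called 0 in either batch. Without the filter on low counts Nppc was called within batch 1 (1.14, edgeR adjusted p = 0.0162). Total-count scaling, which put the median log2 difference of all genes there at 0.18, also called 1 member within batch 1. Of the 8 members tested in both batches, 7 had the same sign in each, Gja4 being the exception. The interaction of treatment and batch called 0 of 9 members and 0% of all genes in edgeR, with no member at an unadjusted p under 0.05 and 342 of all 9603 genes. DESeq2 and limma-voom called no member for it either. Its lowest unadjusted p among the members was 0.261, for Gja4. Between the batches of Control libraries, 0 of 8 members were called by edgeR, 0 by DESeq2 and 0 by limma-voom, beside 11% of all genes in edgeR, with 1 member (Nppc) and 2349 of 9128 genes at an unadjusted p under 0.05.

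**Figure D4:**
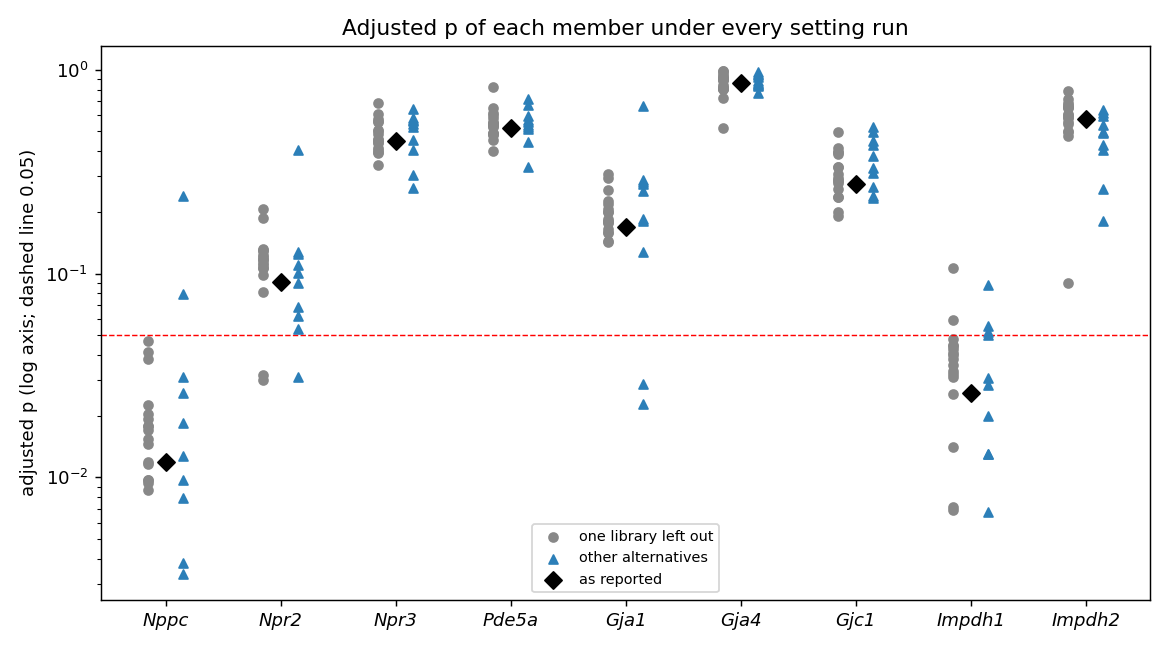
Adjusted p (log axis) of the 9 members tested, as reported (diamonds), with 1 library left out (grey circles) and under the other alternatives (triangles), with a dashed line at 0.05. Nppc (0.0119 as reported) stays under the line in every omission of 1 library and crosses it under 2 other alternatives, whereas Npr2 (0.0915), Gja1 (0.170) and Impdh1 (0.0261) have points on both sides.

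Around the members, 6 lists of pathway genes were read, which include the members themselves. Of 10 natriuretic peptides, receptors and processing enzymes, 7 passed the filter, of which Nppc was called higher and 2 genes lower (list median log2 difference 0.43). The 2 were Npr1, the guanylyl cyclase receptor of atrial and B-type peptides, and Furin, a protease that cuts the CNP precursor. Npr1 fell by 1.18 ± 0.23 on the log2 scale, from a Control mean of 61.6 ± 23.4 CPM (SD, n = 11) to a Tyrphostin mean of 27.2 ± 5.98 CPM (SD, n = 6), with 5 of 6 Tyrphostin libraries below all Control libraries (edgeR adjusted p = 0.0017). Furin fell by 1.23 ± 0.24, from 28.4 ± 11.9 to 11.7 ± 2.79 CPM (edgeR adjusted p = 0.0012). Per kilobase of exon, Npr1 stood above Npr2 in Control (12.9 ± 4.88 against 5.34 ± 1.36 CPM per kb, SD, n = 11). In Tyrphostin libraries, at 5.69 ± 1.25 against 7.29 ± 1.04 (SD, n = 6), the ranges of mean ± SD overlapped. Exons of Npr1 overlap those of Gm16048, and exons of Furin those of Gm44851, on the other strand.

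Of 21 genes of cGMP synthesis, breakdown and effectors, 10 passed the filter, with 1 called higher, 2 lower and a median of 0.18. Prkg2, the type II cGMP-dependent kinase, fell by 1.46 ± 0.43, from 4.86 ± 3.20 to 1.76 ± 0.646 CPM (edgeR adjusted p = 0.0286), and the call held in 9 of 17 omissions of 1 library but not in limma-voom. Vasp, an actin regulator that these kinases phosphorylate, fell by 0.91 ± 0.29 (edgeR adjusted p = 0.0477), kept its call in 4 of 17 omissions and was not called by limma-voom either. Pde10a, a phosphodiesterase of cAMP and cGMP, rose by 0.54 ± 0.17 (edgeR adjusted p = 0.0403) and kept it in 8 of 17. DESeq2 also called Gucy1a1, a subunit of soluble guanylyl cyclase, which differed by 0.74 ± 0.24 in edgeR (adjusted p = 0.0561) and is named after its values were seen. Pde3a, the oocyte enzyme that cGMP inhibits, had 77 reads in all and did not pass the filter.

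Of 29 connexins, pannexins and junction partners, 9 passed the filter, with 0 called higher by edgeR, 1 lower and a median of -0.16. At an unadjusted p under 0.05 there were 3 of the 9, beside 2279 of all 9603 genes. In this list limma-voom called Cav1 alone, and DESeq2 called Cav1 and Gja1. Among the 20 connexin genes of the list only Gja1, Gja4 and Gjc1 passed the filter. Tjp1 (ZO-1, which binds Cx43) differed by -0.31 ± 0.18 and did not pass the test (edgeR adjusted p = 0.319). Cav1, the caveolar coat protein, fell by 0.83 ± 0.24 (edgeR adjusted p = 0.0286) and kept its call in 12 of 17 omissions.

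Of 21 genes of guanine nucleotide synthesis, 18 were matched in the table and 16 passed the filter. Of the 16, edgeR called Impdh1 alone, and the list median was -0.17. DESeq2 and limma-voom each also called Guk1 (guanylate kinase), which differed by 0.66 ± 0.23 in edgeR (adjusted p = 0.0662) and is named after its values were seen. Of 20 genes of the oocyte arrest and resumption machinery, 14 passed the filter and edgeR called 0, at a median of 0.29, with 2 at an unadjusted p under 0.05 beside 2279 of 9603 genes. DESeq2 called 2, Pkmyt1 and Ccnb2, and limma-voom called 0; these 2 genes are named after their values were seen. Gpr3, the receptor that keeps oocyte cAMP high, had 108 reads in all and did not pass the filter.

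Of 13 oocyte factors and receptors that act on cumulus cells, 12 passed the filter, with 2 called higher, 1 lower and a median of 0.11. Lhcgr, the luteinizing hormone receptor, rose by 1.02 ± 0.24, from 463 ± 293 to 926 ± 261 CPM (edgeR adjusted p = 0.0076; 0.0596 without the batch term). Fshr, the follicle-stimulating hormone receptor, rose by 0.83 ± 0.25 (edgeR adjusted p = 0.0344) and kept its call in 11 of 17 omissions. Fgfr1 fell by 0.62 ± 0.20 (edgeR adjusted p = 0.0470), with its call kept in 3 of 17 omissions. Gdf9, an oocyte growth factor, differed by -0.09 ± 0.31 (edgeR adjusted p = 0.909). All 9 of these called genes that are not members kept their direction in every setting run. Of the 10 alternatives other than omission of 1 library, the call held in 10 for Npr1, 9 for Furin, 8 for Lhcgr, 6 for Prkg2 and Pde10a, 5 for Vasp, Cav1 and Fshr, and 3 for Fgfr1. The lists were read by these counts alone, beside the 10.6% of all genes called.

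**Figure D5:**
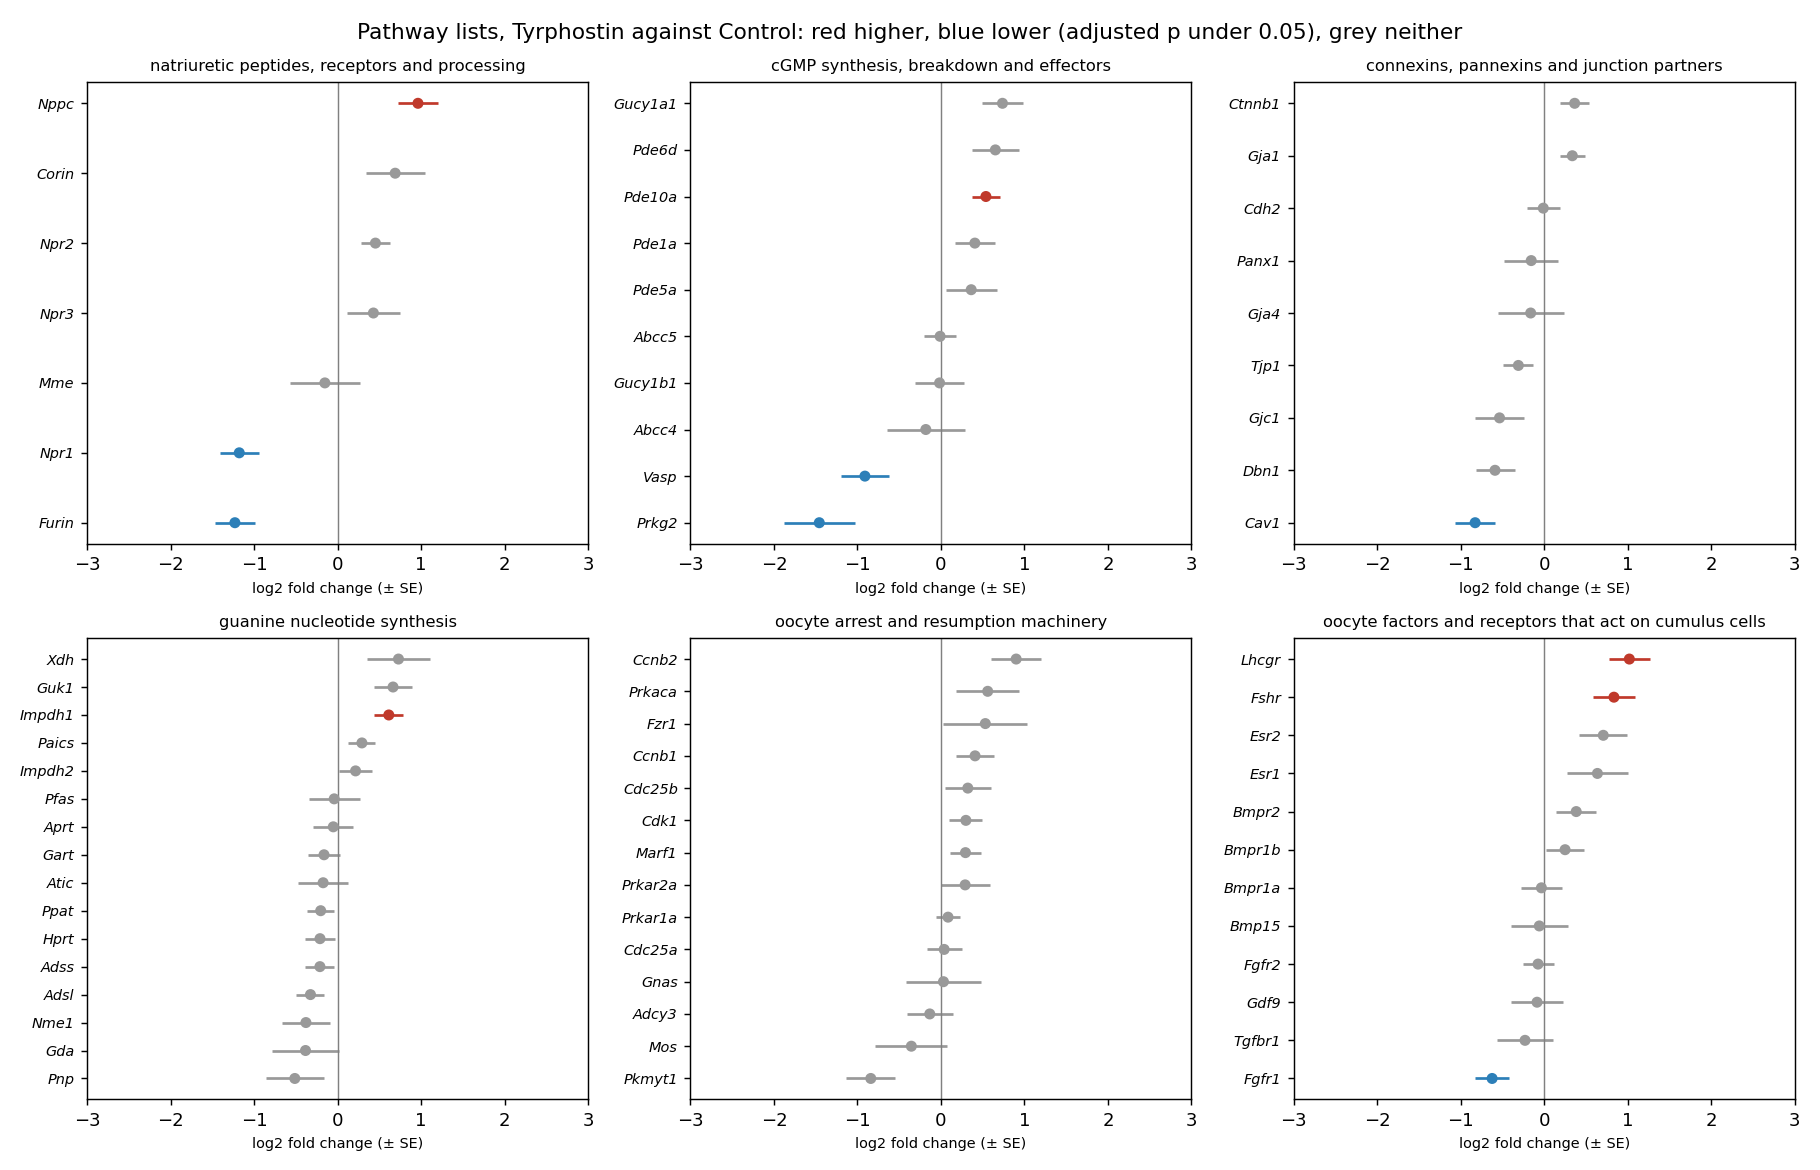
Log2 difference of Tyrphostin from Control (bars ± SE) for every gene of the 6 pathway lists that passed the filter, with genes called higher in red, called lower in blue and not called in grey. Npr1 (-1.18) and Furin (-1.23) lie lowest in the natriuretic list, and no gene of the oocyte arrest list is called.

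Over the 17 libraries, the genes whose log2 CPM, centred within batch, followed a member most closely were listed for 3 members by Pearson's r, as a description that shares library depth and treatment group. For Nppc they were Tmed4 (r = 0.867), Ccng1 (0.864) and Ociad1 (0.851). For Npr2 they were Poldip2 (0.867), Nacad (0.848) and Scara3 (0.847). For Gja1 they were Insr (0.887), Fzd4 (0.837) and Parn (0.835). With the group difference also removed, these values ran from 0.663 (Parn) to 0.791 (Poldip2).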

How the data were processed

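RNA was purified with RNA-SPRI beads and per the labels' protocols libraries were made with Smart-Seq2, which copies whole transcripts and adds no molecular identifiers. The authors deposited raw counts per gene symbol. STAR, HTSeq and GRCm38 are named per the submitters' processing notes. Annotation, strand setting and filters are not given in the sources used here, so how reads of paralogs and overlapping genes were assigned is not known. No library repeats another: the chi-square per degree of freedom was 11.8 to 84.1 over the 31 pairs within a group and batch.

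The tests used edgeR 4.0.16 (R 4.3.3) on these counts, with low genes removed by filterByExpr on the 2 groups, TMM scaling, estimateDisp, robust glmQLFit and glmQLFTest, with batch as a term and Benjamini-Hochberg adjustment over all genes tested (threshold 0.05). Standard errors are the log2 difference divided by the square root of F. CPM use TMM-scaled library totals, and levels per kb use the union of GENCODE M21 exons. The code was tested on simulated counts. DESeq2 1.42.0, limma-voom (limma 3.58.1), other scaling, no filter, summed Control sets, no batch term, the replicate block and omission of each library were tried as alternatives. The 95% intervals of log2 differences come from the edgeR fit and include the spread between libraries, whereas the floor of 3 counts per library covers counting error only.

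Named are all members, every pathway list gene that edgeR called, Pde3a, Gpr3, Gdf9, Tjp1 and Prkg2 whatever their change, Dusp6, Egr1 and Areg as label checks, and the 3 genes most like Nppc, Npr2 and Gja1. The members and lists were chosen with earlier results of these data known. Gmps, Gmpr and Gmpr2 were not analysed here, and 1 further list gene is not reported here. Promoter windows are RefSeq's (GRCm38.p6), with 9 of 10 members matched. The motifs searched on both strands were a CRE half-site, AP-1, Sp1 box, EGR, SF-1 and TATA box.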

Additional observations from a re-analysis of the deposited data

Results flagged for a closer look

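In 4 of 30 combinations of a member and a group of 5 or 6 libraries, 1 library stood far from the others of its group. Chance gives about 1 in 20 for values with a normal spread, which low counts such as those of Prkg1 need not have. The Tyrphostin group also pools both batches, so the 4 are listed without a reading against that rate. Prkg1 was at 2.89 CPM in Control 4, with the rest of the batch 1 Control group at 0 to 1.08 CPM. Gjc1 was at 5.64 CPM in Control 1, against 2.25 to 3.47 CPM in the other Control libraries of that batch. Impdh1 was at 69.6 CPM in Tyrphostin 2, against 126 to 158 CPM in the other Tyrphostin libraries; without Tyrphostin 2 its log2 difference was 0.74 (edgeR adjusted p = 0.0070). Impdh2 was at 151 CPM in Control 7, against 51.5 to 72.7 CPM in the rest of the batch 2 Control group, and Control 7 also had the highest oocyte marker sum of the Control group.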

How the results depend on the processing

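The count of 1018 genes called between the groups was 619 without the batch term, 624 with the replicate block and 478 at an adjusted p under 0.01, and 708 to 1314 with 1 library left out. The count of 2 members was 4 with total-count scaling and 3 with DESeq2. These settings also called more of all 9603 genes, 1111 with total-count scaling and 1313 with DESeq2. The member count was 1 with Control libraries summed by set, 1 without the batch term and 1 without Control 8 and Tyrphostin 5 (chosen after seeing the data). It was 0 with the replicate block and 0 at an adjusted p under 0.01. With 1 library left out it was 1 to 3. Total-count scaling gave 715 higher and 396 lower calls, against 418 and 600. Without Control 7 and Tyrphostin 6, also chosen after seeing the data, 2 members were called.

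With the replicate block Nppc differed by 0.70 (edgeR adjusted p = 0.241) and Impdh1 by 0.79 (edgeR adjusted p = 0.0878), and the highest adjusted p of Furin (0.066) and Prkg2 (0.240) also came with it. With summed sets Impdh1 differed by 0.69 (edgeR adjusted p = 0.0553). The labels do not say that a number pairs libraries: correlations of same-numbered libraries ran from -0.133 to 0.469.

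The batch 1 count of 634 was 239 with summed sets and 394 (without Tyrphostin 2) to 687 with 1 library left out. The batch 2 count of 61 was 222 without a filter, 303 with DESeq2, and 11 (without Tyrphostin 6) to 221 (without Control 7) with 1 left out. The interaction count of 0 in edgeR was 79 without a filter, 0 with DESeq2 and limma-voom and 0 to 0 with 1 left out (342 at an unadjusted p under 0.05). The Control batch count of 1004 was 101 with summed sets and 660 (without Control 3) to 1063 with 1 left out. The log2 difference of Gja4 changed sign to 0.028 with total-count scaling and to 0.18 without Control 7 and Tyrphostin 6, and ran from -0.48 (without Tyrphostin 3) to 0.084 (without Control 7) with 1 library left out. Low counts limit Npr3, Pde5a, Prkg1, Gja4 and Gjc1. The cause of these changes was not tested.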
